A study of Homo sapiens with 12 samples.

Results

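Genes of canonical Wnt signalling were followed in MDA-MB-231 cells given mimics of miR-183-5p that differ in where they begin and end. The 10 genes were the secreted antagonists DKK1 and DKK3, the co-receptors LRP5 and LRP6, the destruction complex genes APC, AXIN1 and AXIN2, the ubiquitin ligase gene BTRC, the effector CTNNB1 and the DNA-binding partner TCF7L2. They were chosen by platform gene symbol and make up 10 of the 22411 genes that had a symbol of their own on the array. Within a gene the transcript cluster was selected on the highest mean log2 signal over the 12 arrays, but each of the 10 genes had 1 cluster, so that step chose nothing. DKK1, LRP6 and BTRC were named with their log2 differences from control already known. Those values are therefore given as a description, with no p-value.

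MDA-MB-231 is a long-established human cell line, from a triple-negative breast cancer and mesenchymal in character. Cells of every group were transfected with Lipofectamine RNAiMAX and an oligonucleotide at 50 nM and were harvested at 48 h. The groups, of 3 Affymetrix arrays each, received the reference form of the microRNA (archetype), an isomiR whose ends both lie at -2 (minus2), an isomiR whose ends both lie at +2 (plus2), or the supplier's Negative Control #1 (control). The series description writes 1 of the minus2 ends without its sign, and the sample labels were followed. A mimic raises 1 form far above what a cell normally holds, a single line was used, and the labels do not tell whether replicates were separate cultures. The p-values therefore measure a spread that may be technical.

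In canonical Wnt signalling a secreted Wnt protein binds a Frizzled receptor together with LRP5 or LRP6. Without that signal, a complex built on AXIN and APC lets beta-catenin, the product of CTNNB1, be phosphorylated, and the F-box protein beta-TrCP, encoded by BTRC, marks it for degradation. With the signal, beta-catenin accumulates and works with TCF/LEF proteins such as TCF7L2 on target genes, AXIN2 being the most widely used of them. DKK1 binds LRP5 and LRP6 and blocks the receptor step, whereas DKK3 is a divergent relative without that settled role. A microRNA finds transcripts mainly through its seed, bases 2 to 8 from its 5′ end.

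The 3 forms are shown because the shift of their ends is what distinguishes the mimics, and it gives each of them another seed. The archetype is the RefSeq mature hsa-miR-183-5p at chr7:129774967-129774988 of GRCh38.p14, minus strand, and the isomiR sequences are those of the labels written as RNA. All are given 5′ to 3′ with the seed in capitals.
archetype: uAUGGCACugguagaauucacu
minus2: uGUAUGGCacugguagaauuca
plus2: uGGCACUGguagaauucacugu
Each form is 22 nt long. Each isomiR shares 20 nt with the archetype, and the 2 isomiRs share 18 nt with each other. The 3 seeds are different, and none of the 3 was the seed of another entry among 2370 mature human microRNAs in the RefSeq table. No target site was read from the transcripts, since no transcript sequences were used here.

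The values are log2 signals, so a difference of 1 is a doubling. Replicate arrays correlated across genes with Pearson's r between 0.997 and 0.999, genes not being independent replicates. Replicates of plus2 spread most, with a median SD of 0.0827 log2 units, while the other groups had 0.0576 to 0.0641. The defining genes VIM, CD44, AXL and MSN stood at or above percentile 98.6 of mean signal among all genes, and of the 5 genes chosen as low in this line ESR1 and PGR stood at 21.7 and 7.76. The other 3 went against the choice, CDH1 at percentile 47.2, GATA3 at 53.8 and EPCAM at 79.1. CDH1, the epithelial cadherin gene, averaged 6.05 with plus2 and 4.92 in control, and its part in the results was not tested. The percentiles pool the groups, and MSN was not level across them. Its mean was 15.31 in control but 13.10 for plus2, and 14.80 and 14.48 for minus2 and archetype. The other defining genes differed less, with plus2 and control means of 13.59 and 13.80 for VIM, 14.11 and 14.49 for CD44, and 15.25 and 15.40 for AXL. What the lower MSN signal means for the results was not tested either. The 4 white blood cell genes stood at percentile 20.4 (PTPRC), 36.5 (CD3E), 43.9 (CD14) and 98.3 (CD68), and the 6 fibroblast genes between 12.1 (PDGFRA) and 48.7 (COL1A1). The 10 genes stood between percentile 41.9, for AXIN2, and 95.7, for DKK1, and all passed the filter on mean signal that left 14940 genes.

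**Figure D1:**
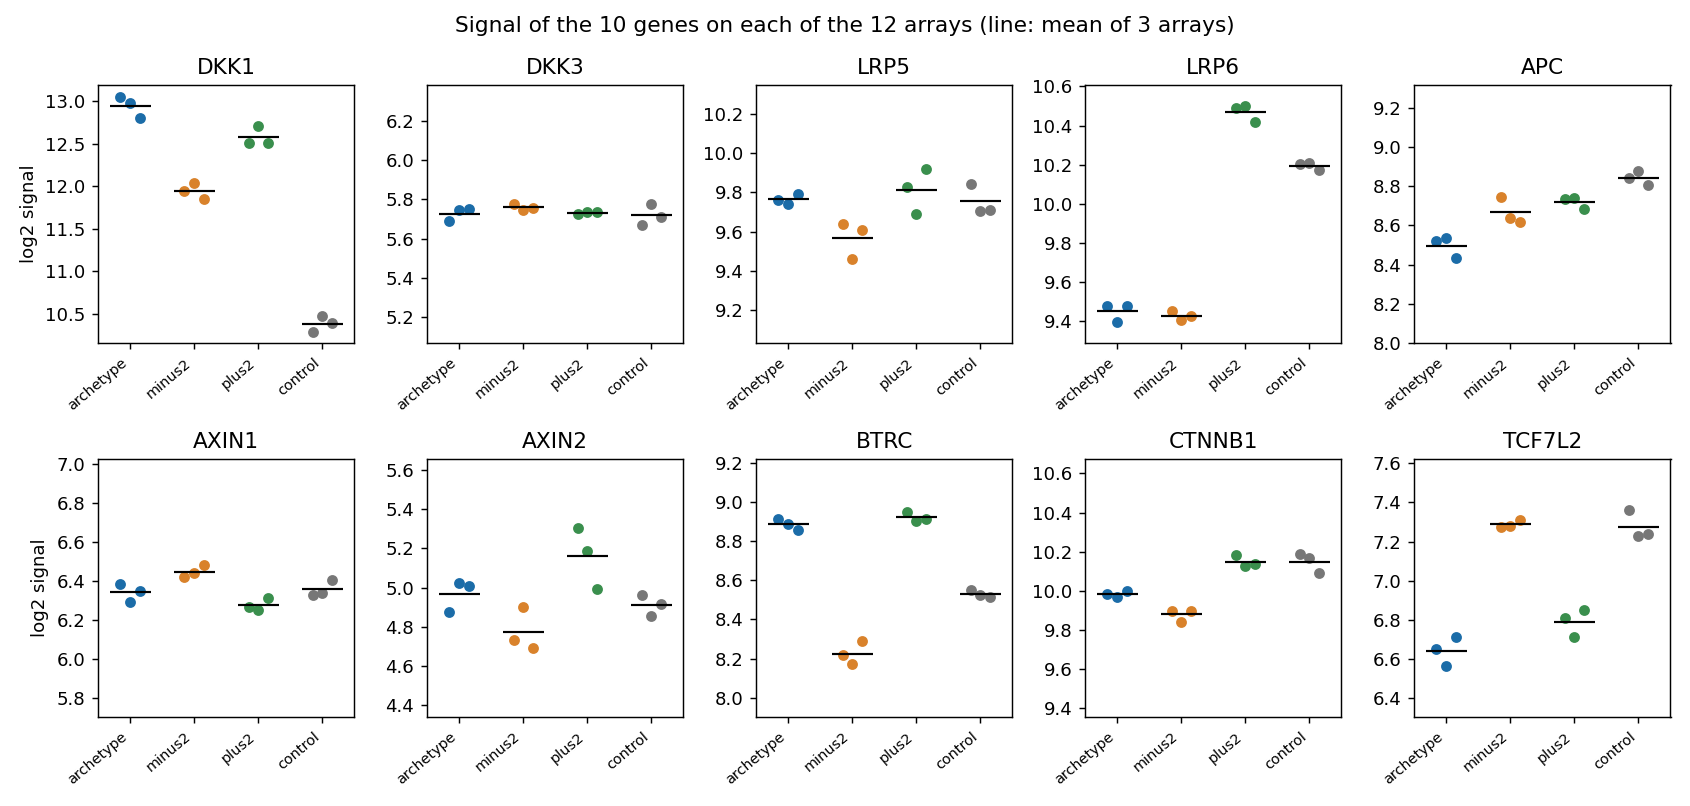
Log2 signal of the 10 genes (y axes, each with its own range) on every array, by group along the x axis, with 3 points and a line at the mean for each group. DKK1 is above control on all 9 mimic arrays, LRP6 is below control with the archetype and minus2 and above it with plus2, and BTRC is below control with minus2 alone.

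DKK1 was higher with every mimic than in control. Its log2 signal was 13.05, 12.98 and 12.81 on the archetype arrays, 11.94, 12.04 and 11.86 with minus2, and 12.51, 12.71 and 12.51 with plus2, against 10.29, 10.47 and 10.39 in control. No array of a group overlapped those of another, and the order was archetype, plus2, minus2, control from high to low. The difference from control was 2.56 ± 0.080 (SE) log2 units with the archetype, which is 5.90-fold. It was 1.56 ± 0.080 with minus2, or 2.95-fold, and 2.19 ± 0.080 with plus2, or 4.58-fold. Among the 14940 tested genes DKK1 ranked 1 by rise with the archetype mimic, 2 with minus2 and 3 with plus2. All 3 comparisons use the same control arrays. On an array made from a fixed 100 ng of RNA, more transcript per cell cannot be told apart from a larger share of cells that express the gene.

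The size of the DKK1 difference was not the same for the 3 forms. DKK1 averaged 11.95 ± 0.094 with minus2 and 12.95 ± 0.13 with the archetype (SD, n = 3 each), with a 95% interval of the difference from -1.18 to -0.82. With plus2 it was lower than with the archetype by a difference of -0.37 ± 0.080 (95% interval -0.54 to -0.19). It was higher with plus2 than with minus2 by 0.63 ± 0.080 (95% interval 0.46 to 0.81), as the plot of differences shows.

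DKK3, the other Dickkopf gene of the set, varied little between arrays and was called with no mimic. Its log2 signal lay between 5.69 and 5.75 with the archetype, between 5.75 and 5.78 with minus2 and between 5.72 and 5.74 with plus2, against 5.67 to 5.78 in control. The 3 differences from control were 0.01, 0.04 and 0.01 log2 units with adjusted p of 0.92, 0.50 and 0.85 (limma, Benjamini-Hochberg). The 95% intervals reach no further than -0.08 and 0.13, so changes of DKK3 on the scale of those of DKK1 are outside them. Its signal, at percentile 52.1, is not shown to be above background, which can compress a difference.

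LRP6, the co-receptor to which DKK1 binds, split the 3 mimics. It read 9.48, 9.40 and 9.48 with the archetype, 9.45, 9.40 and 9.43 with minus2 and 10.49, 10.50 and 10.42 with plus2, against 10.20, 10.21 and 10.17 in control. The plus2 arrays were all above control and the archetype and minus2 arrays all below it, while the archetype and minus2 arrays overlapped each other. The difference from control was -0.74 ± 0.041 log2 units with the archetype and -0.77 ± 0.041 with minus2, which leave 0.598 and 0.588 of the control signal. With plus2 it was 0.28 ± 0.041, or 1.21-fold.

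Set against each other, plus2 and the archetype differed in LRP6 by 1.02 ± 0.041 log2 units and plus2 and minus2 by 1.04 ± 0.041, about 2.03-fold and 2.06-fold. By its excess with plus2 LRP6 ranked 18 over the archetype and 91 over minus2 among the 14940 tested genes. By fall from control LRP6 ranked 107 with the archetype and 138 with minus2, and by rise with plus2 it ranked 1555. Minus2 and the archetype differed by -0.02 ± 0.041, with a 95% interval from -0.11 to 0.07. So DKK1 and LRP6 went in opposite directions with the archetype and minus2, and in the same direction with plus2.

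LRP5, the paralogue of LRP6, shares its role at the receptor and moved much less. It read 9.76, 9.74 and 9.79 with the archetype, 9.64, 9.46 and 9.61 with minus2 and 9.83, 9.69 and 9.92 with plus2, against 9.84, 9.71 and 9.71 in control. The archetype and plus2 arrays overlapped control and the minus2 arrays lay below it. The difference from control was 0.01 ± 0.067 with the archetype (adjusted p = 0.94), -0.19 ± 0.067 with minus2 (adjusted p = 0.058) and 0.06 ± 0.067 with plus2 (adjusted p = 0.57, limma), so none was called. For minus2 the adjusted p ran from 0.015 to 0.21 over 21 alternative settings and was under the threshold of 0.05 in 8 of them. LRP5 was higher with plus2 than with minus2 by 0.24 ± 0.067 (adjusted p = 0.013), a call lost without minus2 replicate 2 (0.19, adjusted p = 0.059).

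**Figure D2:**
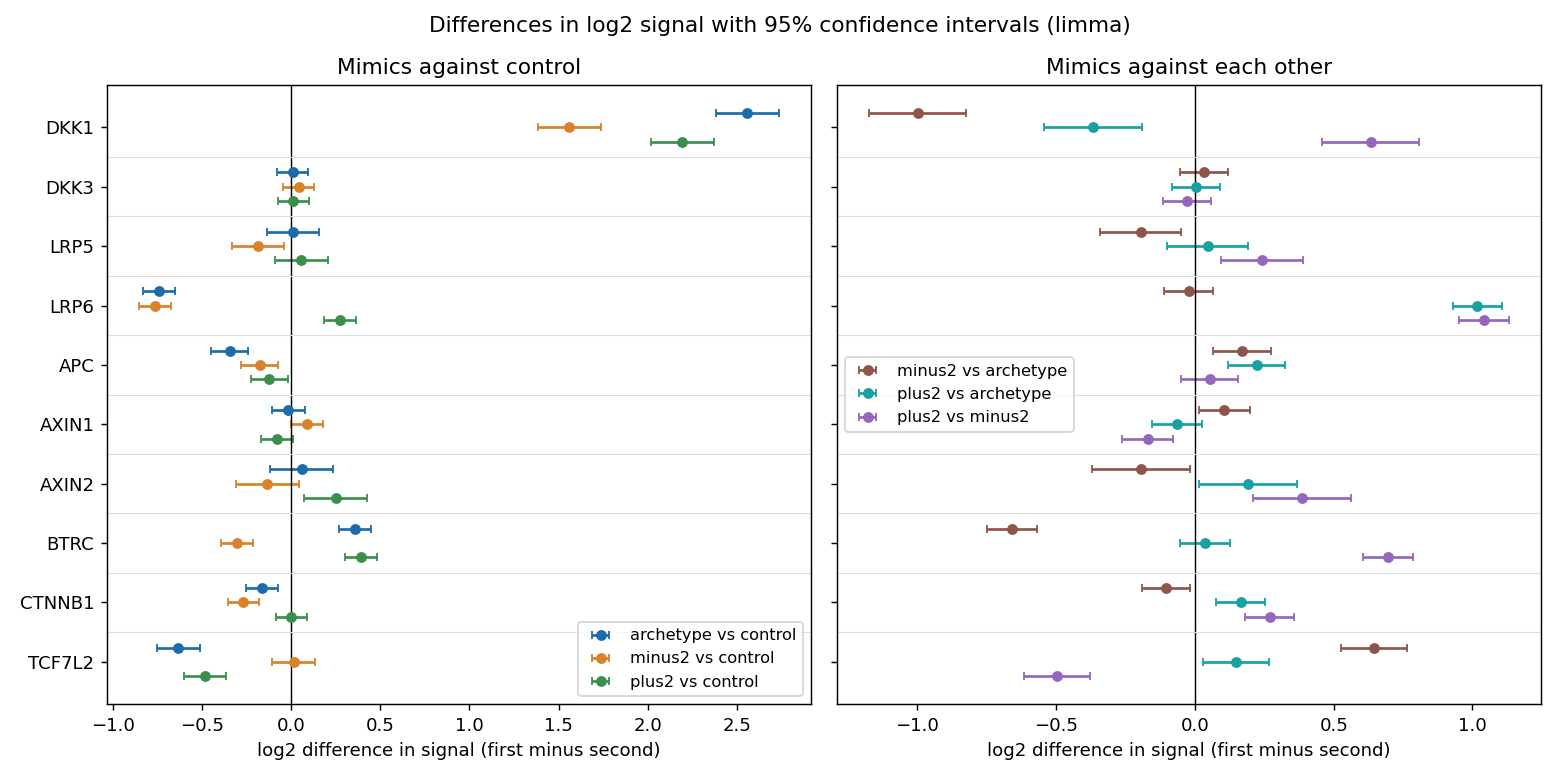
Difference in log2 signal (x axis) of each of the 10 genes (rows) with its 95% confidence interval from limma, for the mimics against control on the left and against each other on the right. DKK1 reaches 2.56 with the archetype, LRP6 lies at -0.74, -0.77 and 0.28 with archetype, minus2 and plus2, and the DKK3 intervals all cross 0.

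Of the destruction complex genes, APC was lower with the archetype and with minus2. APC, the large scaffold that is lost in most colorectal cancers, read 8.52, 8.54 and 8.44 with the archetype, 8.74, 8.64 and 8.62 with minus2 and 8.74, 8.74 and 8.68 with plus2, against 8.84, 8.88 and 8.81 in control. Every mimic array lay below every control array. It fell by 0.35 log2 units with the archetype (SE 0.047, adjusted p = 0.00022) and by 0.18 with minus2 (SE 0.047, adjusted p = 0.014, limma). With plus2 the difference of -0.12 ± 0.047 did not pass (adjusted p = 0.062), but it did with the replicate block (adjusted p = 0.034), with arrays centred on their medians (0.040) and with a stricter filter on signal (0.047). For minus2 it did not pass once control replicate 2 (-0.16, adjusted p = 0.056), minus2 replicate 2 (-0.16, adjusted p = 0.051) or minus2 replicate 3 (-0.15, adjusted p = 0.061) was left out.

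APC was lowest with the archetype. Minus2 was above the archetype by 0.17 ± 0.047 (adjusted p = 0.021) and plus2 by 0.22 ± 0.047 (adjusted p = 0.0040), whereas plus2 and minus2 differed by 0.05 ± 0.047 (adjusted p = 0.43, limma). The gap of minus2 to the archetype no longer passed without archetype replicate 3 (0.14, adjusted p = 0.090) or without minus2 replicate 1 (0.13, adjusted p = 0.094).

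AXIN1, the scaffold that sets the amount of the complex, differed from control with no mimic beyond the threshold. Its group means ± SD were 6.34 ± 0.048 with the archetype mimic, 6.45 ± 0.031 with minus2 and 6.28 ± 0.031 with plus2, against 6.36 ± 0.041 in control (n = 3 each). Adjusted p against control was 0.83, 0.14 and 0.17 for archetype, minus2 and plus2 (limma). The 2 isomiRs lay on either side of control and differed from each other, with plus2 lower than minus2 by a difference of -0.17 ± 0.042 (adjusted p = 0.0068).

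AXIN2, both a scaffold and a feedback target of the pathway, had the weakest signal of the set. It read 4.88, 5.02 and 5.01 with the archetype, 4.73, 4.90 and 4.69 with minus2 and 5.30, 5.19 and 4.99 with plus2, against 4.96, 4.86 and 4.92 in control. The plus2 arrays lay above control and were the most scattered, while the other mimics overlapped control. With plus2 AXIN2 rose by 0.25 ± 0.080 (adjusted p = 0.032), and the differences with the archetype (0.06, adjusted p = 0.67) and minus2 (-0.14, adjusted p = 0.25) were not called. The plus2 call was lost without plus2 replicate 1 (0.18, adjusted p = 0.12), plus2 replicate 2 (0.24, adjusted p = 0.080), control replicate 2 (0.22, adjusted p = 0.10) or control replicate 3 (0.25, adjusted p = 0.072). It also did not pass with arrays centred on their medians (adjusted p = 0.057), without a filter on mean signal, or when only plus2 and control arrays were fitted. In all, the plus2 call of AXIN2 was lost in 7 of 20 alternatives.

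Between the isomiRs AXIN2 was higher with plus2 than with minus2 by 0.39 ± 0.080 (adjusted p = 0.0025), and this passed under each of the 20 alternatives in which the gene was tested. The lower limit of the tested genes was a mean log2 signal of 4.54. A signal this close to it is not shown to be above background.

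BTRC moved in both directions. Its log2 signal was 8.91, 8.89 and 8.86 with the archetype, 8.22, 8.17 and 8.29 with minus2 and 8.95, 8.90 and 8.91 with plus2, against 8.55, 8.52 and 8.52 in control. The archetype and plus2 arrays overlapped each other and lay above control, and the minus2 arrays lay below it. The difference from control was 0.36 ± 0.041 with the archetype mimic, -0.30 ± 0.041 with minus2 and 0.39 ± 0.041 with plus2. Minus2 was thus under the archetype by a difference of -0.66 ± 0.041, while plus2 and the archetype differed by 0.04 ± 0.041 (95% interval -0.05 to 0.13). The form that stands apart for BTRC is minus2, whereas for LRP6 it is plus2.

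CTNNB1, which encodes beta-catenin itself, fell with the archetype and with minus2. It read 9.98, 9.97 and 10.00 with the archetype, 9.90, 9.84 and 9.90 with minus2 and 10.18, 10.13 and 10.14 with plus2, against 10.19, 10.17 and 10.09 in control. The plus2 arrays overlapped control and those of the other mimics lay below it. It fell by 0.17 with the archetype (SE 0.040, adjusted p = 0.010) and by 0.27 with minus2 (SE 0.040, adjusted p = 0.00036, limma). With plus2 the adjusted p was 0.99, with a 95% interval from -0.09 to 0.09. These are small changes of transcript, to 0.892 of control with the archetype and 0.830 with minus2, and beta-catenin protein, the level at which the pathway acts, was not measured.

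CTNNB1 was higher with plus2 than with the archetype by 0.17 ± 0.040 (adjusted p = 0.0089) and than with minus2 by 0.27 ± 0.040 (adjusted p = 0.00022). The archetype and minus2 differed by -0.10 ± 0.040, minus2 being lower, which did not pass (adjusted p = 0.085, and from 0.038 in the 3 of 21 alternatives where it did).

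TCF7L2, the TCF family member best known from intestine and type 2 diabetes, fell with the archetype and plus2. Its log2 signal was 6.65, 6.56 and 6.71 with the archetype, 7.27, 7.28 and 7.31 with minus2 and 6.81, 6.71 and 6.85 with plus2, against 7.36, 7.23 and 7.24 in control. Minus2 overlapped control, and all arrays of the other mimics lay below both. It fell by 0.63 with the archetype (SE 0.054, adjusted p = 6.3e-06) and by 0.49 with plus2 (SE 0.054, adjusted p = 3.4e-05, limma), and with minus2 the difference was 0.01 (adjusted p = 0.90, 95% interval -0.11 to 0.13). These changes leave 0.644 of the control signal with the archetype and 0.714 with plus2.

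Compared directly, TCF7L2 exceeded its archetype level with minus2 by 0.65 ± 0.054 (adjusted p = 5.5e-06). With plus2 it was lower than with minus2 by a difference of -0.50 ± 0.054 (adjusted p = 2.0e-05). Plus2 and the archetype differed by 0.15 ± 0.054, which did not pass (adjusted p = 0.063), although it did in 7 of 21 alternatives (adjusted p from 0.019, and 0.041 with the replicate block).

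Counted together, 3 of the 7 genes other than DKK1, LRP6 and BTRC fell with the archetype and 2 with minus2, and none rose with either. Of all tested genes 14.3% rose and 10.3% fell with the archetype, and 17.5% rose and 11.9% fell with minus2. With plus2 1 of the 7 rose and 1 fell, where 17.4% of all tested genes rose and 16.2% fell. In either direction 24.6% of tested genes were called with the archetype mimic, 29.4% with minus2 and 33.6% with plus2, beside 3, 2 and 2 of the 7. The 7 were themselves chosen with earlier results of these data known, so setting them beside all tested genes is a description. With DKK1, LRP6 and BTRC, named with their changes known, 6, 5 and 5 of 10 were called. Between mimics, 2 of the 7 were called for minus2 against the archetype, 2 for plus2 against the archetype and 5 for plus2 against minus2, where 24.3%, 28.9% and 38.7% of all tested genes were called. Adding the 3 genes made these 4, 4 and 8 of 10.

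The median difference of the 10 genes was 0.00 with the archetype mimic, -0.16 with minus2 and 0.03 with plus2, and over all tested genes it was 0.01, 0.01 and 0.00. The 10 include DKK1, LRP6 and BTRC, named with their differences from control known, so their median is only a description. Leaving out DKK1, LRP6 and BTRC, the archetype arrays did not overlap control for 3 of 7 genes, and the minus2 and plus2 arrays for 4 of 7 each. The same held for 41.2%, 44.9% and 42.8% of all tested genes. An exact two-sided permutation test of 3 against 3 arrays cannot go below 0.1, so no gene was tested that way.

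**Figure D3:**
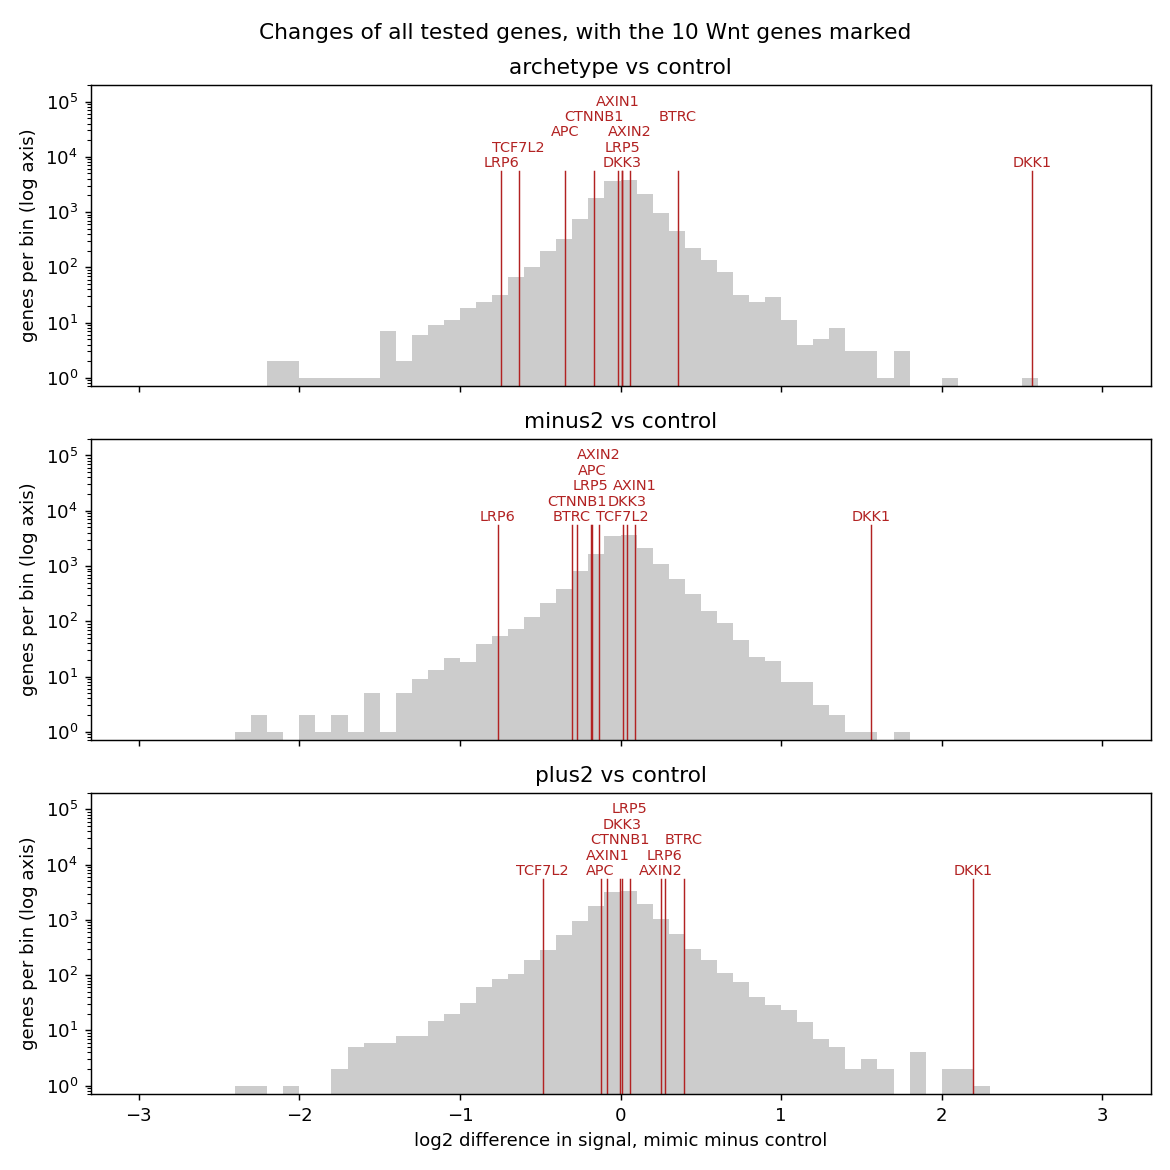
Number of tested genes per bin of 0.1 log2 units (y axis, logarithmic) by difference in signal between each mimic and control (x axis), with red lines at the 10 genes. DKK1 stands at the right-hand edge in all 3 panels, at 2.56, 1.56 and 2.19, LRP6 lies at -0.74, -0.77 and 0.28, and with plus2 both TCF7L2 at -0.49 and BTRC at 0.39 lie further from 0 than LRP6.

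The rest of the pathway was read from 107 further genes in 6 role lists, written with earlier results of these data known. Of these, 102 had a cluster with a symbol of its own, 28 of them stayed below the filter on signal, and 74 were tested. With the archetype 10 rose and 12 fell (29.7% called), with minus2 11 rose and 11 fell (29.7%), and with plus2 8 rose and 16 fell (32.4%). These shares stand beside the 24.6%, 29.4% and 33.6% of all tested genes. The median difference over the 74 genes was -0.02, 0.00 and 0.00 log2 units. Once arrays were centred on their medians, 6 rose and 17 fell with the archetype and 10 rose and 16 fell with minus2, so the balance of directions moved with the scaling.

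Among 6 tested extracellular antagonists of the list, the one that changed was KREMEN1, a transmembrane protein that binds DKK1 and helps to clear LRP6 from the surface. The share called was 16.7% with each mimic, beside 24.6%, 29.4% and 33.6% of all tested genes. KREMEN1 had a log2 signal of 6.24 ± 0.044 with the archetype mimic, 6.06 ± 0.014 with minus2 and 6.70 ± 0.12 with plus2, against 6.47 ± 0.068 in control (SD, n = 3 each). KREMEN1 fell by 0.23 with the archetype (SE 0.059, adjusted p = 0.016) and by 0.41 with minus2 (adjusted p = 0.00032), and rose by 0.23 with plus2 (adjusted p = 0.0099, limma). For the archetype it did not pass without control replicate 2 (-0.19, adjusted p = 0.067) or archetype replicate 1 (-0.20, adjusted p = 0.059), nor for plus2 when only plus2 and control arrays were fitted (adjusted p = 0.054). The signs are those of LRP6 with each mimic. SOST, another antagonist of LRP5 and LRP6, differed by -0.42 with the archetype and -0.40 with plus2 and did not pass (adjusted p = 0.055 and 0.051). With minus2 it differed by -0.18 (adjusted p = 0.41, limma). The log2 signal of SOST in control was 5.42 ± 0.18 (SD), which is not shown to be above background. Its archetype arrays were more scattered, with an SD of 0.29.

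Of 16 tested receptors and R-spondin system genes, 1 rose and 3 fell with the archetype, 5 rose and 3 fell with minus2, and 5 fell with plus2. That is 25%, 50% and 31.2% of the list, beside 24.6%, 29.4% and 33.6% of all tested genes. LGR4, a receptor for R-spondins that keeps Frizzled and LRP6 on the surface, had log2 signals of 8.59 ± 0.044, 8.81 ± 0.059 and 9.63 ± 0.13 (SD) for archetype, minus2 and plus2, against 9.69 ± 0.072 in control. LGR4 fell by 1.10 with the archetype (SE 0.065, adjusted p = 3.4e-07) and by 0.89 with minus2 (adjusted p = 2e-06), and with plus2 it differed by -0.06 (adjusted p = 0.51, limma).

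Other receptors divided the forms differently. RYK, a Wnt receptor related to kinases, fell by 0.37 with the archetype and by 0.72 with plus2 and rose by 0.21 with minus2 (adjusted p at most 0.00083). FZD6, a Frizzled receptor, fell by 0.77 with plus2 (adjusted p = 6.3e-06), rose by 0.21 with minus2 (adjusted p = 0.038) and was not called with the archetype (-0.21, adjusted p = 0.052). The FZD6 call with minus2 was lost in 9 of 21 alternatives (adjusted p up to 0.13), 7 of which left out control replicate 2 or 3, an archetype array or minus2 replicate 1 or 2. For the archetype FZD6 passed in 9 of 21 (adjusted p from 0.0053). FZD3 rose by 0.57 with minus2 (adjusted p = 1.7e-05) and was called with neither of the others (adjusted p = 0.34 and 0.72).

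Among 10 tested genes of Wnt ligands and their secretion, none was called with the archetype or minus2 by limma, with 1 gene each at an unadjusted p under 0.05. With plus2 20% of this list was called. Of all tested genes 24.6%, 29.4% and 33.6% were called with archetype, minus2 and plus2. WLS with minus2 (0.16, adjusted p = 0.052) passed in 6 of 21 alternatives (adjusted p from 0.030). With plus2, WLS, the carrier that brings Wnt proteins to the surface, fell by 0.31 (adjusted p = 0.0013) and the ligand gene WNT3 rose by 0.21 (adjusted p = 0.031, limma). WNT3 had a log2 signal of 5.59 in control, not shown to be above background, and its call was lost in 7 of 21 alternatives (adjusted p up to 0.10), 4 of which left out a control array or plus2 replicate 1. Without plus2 replicate 1 it differed by 0.13.

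Of 20 tested genes of cytoplasmic transduction, 3 rose and 3 fell with the archetype, 5 fell with minus2, and 1 rose and 6 fell with plus2. That is 30%, 25% and 35% of the list, beside 24.6%, 29.4% and 33.6% of all tested genes. DVL2, a Dishevelled protein that relays the signal from Frizzled, fell by 0.55 with minus2 (adjusted p = 1.2e-05) and by 0.76 with plus2 (adjusted p = 6.7e-07) and was not called with the archetype (0.06, adjusted p = 0.47). FBXW11, the paralogue of BTRC, rose by 0.14 with the archetype (adjusted p = 0.042) and fell by 0.41 with minus2 (adjusted p = 3.9e-05). With plus2 FBXW11 differed by -0.03 (adjusted p = 0.64, limma). The archetype call of FBXW11 was lost in 12 of 21 alternatives (adjusted p up to 0.15), among them those without control replicate 1 or 3 or any archetype or minus2 array. Both beta-TrCP genes thus had lower signals than control with minus2.

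CAPRIN2, reported to promote LRP6 phosphorylation, fell by 0.44 with the archetype and by 0.62 with plus2 (adjusted p at most 9.1e-05). With minus2 it differed by -0.11 and was not called (adjusted p = 0.14, but 0.031 with arrays centred on their medians). CSNK1G1, a casein kinase of the membrane, fell by 0.38 with plus2 (adjusted p = 0.00015). With the archetype it differed by -0.14 and was not called (adjusted p = 0.062), though it passed in 7 of 21 alternatives, the replicate block among them (adjusted p from 0.010). With minus2 it differed by -0.06 (adjusted p = 0.49, limma).

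Of 14 tested nuclear partners, 5 rose and 1 fell with the archetype, 5 rose with minus2, and 4 rose and 3 fell with plus2. That is 42.9%, 35.7% and 50% of the list, beside 24.6%, 29.4% and 33.6% of all tested genes. TLE1, a co-repressor that TCF proteins recruit, rose by 0.50 with the archetype mimic, 0.30 with minus2 and 0.59 with plus2 (adjusted p at most 0.0047). Its relative TLE3 fell by 0.54 with the archetype and by 0.49 with plus2 (adjusted p = 0.00013 and 0.00017) and was not called with minus2 (-0.19, adjusted p = 0.058, and 0.012 to 0.17 over the alternatives). BCL9 and BCL9L, which link beta-catenin to its co-activators, went opposite ways with plus2, at 0.50 (adjusted p = 7.6e-05) and -0.49 (adjusted p = 4.5e-05, limma).

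Of 8 tested genes often used as targets of the pathway, 1 rose and 4 fell with the archetype, 1 rose and 2 fell with minus2, and 1 rose and 1 fell with plus2. The shares, 62.5%, 37.5% and 25% of a list of 8, stand beside 24.6%, 29.4% and 33.6% of all tested genes. CCND1, which encodes cyclin D1, fell by 0.49 with the archetype (adjusted p = 0.00050), rose by 0.39 with minus2 (adjusted p = 0.0022) and was not called with plus2 (-0.04, adjusted p = 0.75). CD44 fell with all 3, by 0.38, 0.45 and 0.38 with archetype, minus2 and plus2 (adjusted p at most 0.00011). Averaged over its transcript clusters, CD44 differed by -0.68 with the archetype and by -0.69 with plus2, so its clusters disagree on the size. TNFRSF19 rose by 0.43 with the archetype and by 0.27 with plus2 (adjusted p at most 0.00098), and the survivin gene BIRC5 fell by 0.29 with the archetype (adjusted p = 0.0048, limma). The log2 signal of TNFRSF19 in control was 5.23, which is not shown to be above background. Each of these genes also answers to other pathways.

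**Figure D4:**
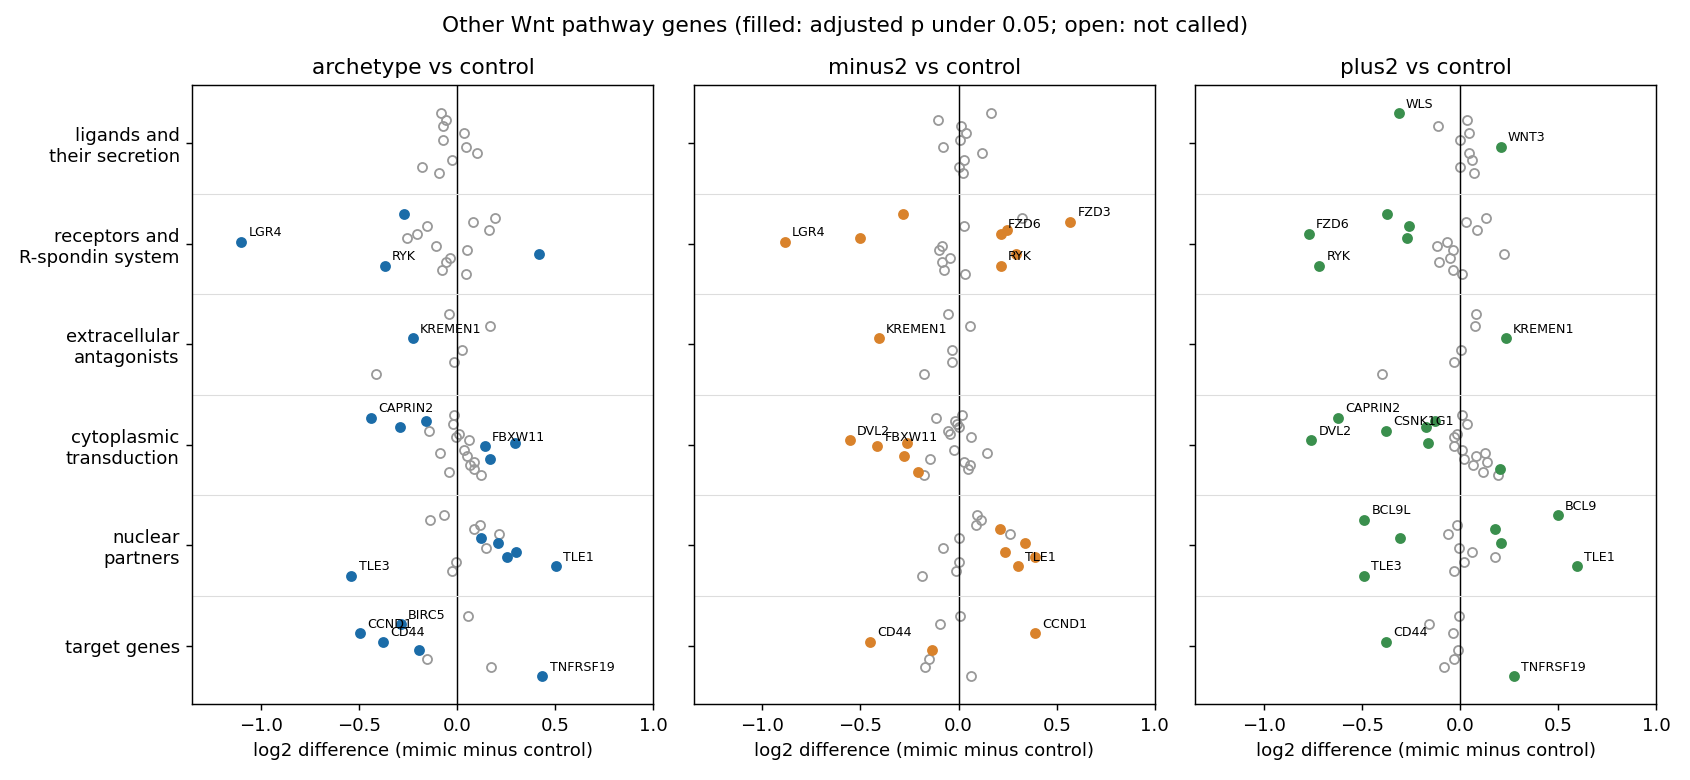
Difference in log2 signal between each mimic and control (x axis, 1 panel a mimic) for the 74 other Wnt genes by role list (rows), filled where the adjusted p was under 0.05. LGR4 lies at -1.10 with the archetype and -0.89 with minus2, FZD6 at -0.77 and DVL2 at -0.76 with plus2, and most other genes lie within 0.5 of control.

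Among 12205 other protein-coding genes, those whose signal followed DKK1 most closely over the 12 arrays were CSF2RA (Pearson's r = 0.985), MAP7D3 (0.982), GTF2F2 (0.980), SLC39A9 (0.975) and NEDD4 (0.975). The arrays fall into 4 groups, so r mostly reflects the group means, and no p is given. Their differences from control were smaller than those of DKK1. CSF2RA, a receptor chain for the growth factor GM-CSF, differed by 0.85, 0.48 and 0.72 log2 units with archetype, minus2 and plus2, and the ubiquitin ligase gene NEDD4 by 0.97, 0.72 and 0.97.

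The genes closest to LRP6 were BHLHE41 (r = 0.984), PPP2R5C (0.983), XPR1 (0.979), SIN3A (0.973) and PON2 (0.969). BHLHE41, a repressor of the circadian clock, differed from control by -0.43, -0.42 and 0.22 with archetype, minus2 and plus2. The phosphate exporter gene XPR1 differed by -0.44, -0.58 and 0.29, and the other 3 differed by less than LRP6 did with every mimic.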

How the data were processed

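The deposited series table was used, with 12 columns of log2 signal, 1 per array, and no column left out. Per the submitters' processing notes, which give neither settings nor genome build, the tools were RMA and Affymetrix Expression Console 1.4.1. RMA subtracts background, quantile-normalises and summarises probes, which compresses differences of weak signals. That the authors' values are log2 was inferred from their range, 1.79 to 19.9, with array medians of 4.73 to 4.80.

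Clusters with 1 gene symbol (23781 of 67528) were kept, symbols were updated through a RefSeq table (GRCh38.p14), and a gene took its cluster with the highest mean. The upper part of mean signal was tested, after leaving out the lowest 33.3%. Group means over all 12 arrays were fitted with limma 3.58.1 in R 4.3.3 (8 residual degrees of freedom), with Benjamini-Hochberg adjustment over 14940 genes per comparison and a threshold of 0.05. "Rose", "fell" and "called" refer to that threshold. Errors are SEs from limma unless marked SD. The fit was tested on simulated data.

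Members and lists were chosen with earlier results of these data known. Named list genes were up to 4 per list with the largest called change. SOST, called with no mimic, was named outside that rule. Precision is limited by the 3 arrays per group. Same-numbered arrays of different groups deviated together in part, with r between -0.04 and 0.27 over 18 pairs of arrays. Differently numbered arrays had r between -0.27 and 0.16. The labels state no pairing, so numbers were not treated as pairing in the main fit. A replicate block was among the alternatives. Alternatives were other filters, scalings, estimates of spread, cluster means and leaving out each array.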

Additional observations from a re-analysis of the deposited data

How the results depend on the processing

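The 10 genes were refitted under 21 alternatives per comparison. Of 876 refitted differences of the 7 genes other than DKK1, LRP6 and BTRC, 800 kept direction and side of the threshold, 13 lost a call, 35 gained one and 28 uncalled ones changed sign. No called difference changed sign. As a description, DKK1 differed from control by 2.51 to 2.63 with the archetype and 2.13 to 2.24 with plus2. Counts of called members stayed within 1.5 times the reported count, except for minus2 against the archetype, with 8 instead of 4 under array weights. Leaving out 1 array each gave 3 to 6 members there and 4 to 6 for minus2 against control. With the replicate block 6, 6 and 6 members were called against control for archetype, minus2 and plus2, and 5, 5 and 8 between mimics. All these member counts include DKK1, LRP6 and BTRC, named with their changes known, which were called against control under every alternative. Only the other 7 genes could therefore move the counts against control. The shares of all tested genes called under the alternatives are not given here, so these counts have no background beside them. Of the 12 arrays 9 correlated best with an array of their own number, a hint from the data only. Counts of the other Wnt genes ranged from 17 to 28 over all settings and mimics. Some calls were gained on leaving out 1 array, at adjusted p between 0.016 and 0.050. They were LRP5 for minus2 against control or archetype (plus2 replicate 2 or 3, and control replicate 1 for the archetype), AXIN2 for either isomiR against the archetype (plus2 replicate 3) and TCF7L2 for plus2 against the archetype (control replicate 1, archetype replicate 3 or plus2 replicate 2). With the stricter filter AXIN2 was not tested. The causes were not tested.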
